A study of Mus musculus with 4 samples.

Results

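SB431542, a small molecule that blocks TGF-β and activin type I receptors, was compared with no inhibitor in mouse embryonic fibroblasts that expressed Osr2 and were undergoing reprogramming. All cells, of strain background C57BL/6, carried SeVdp(KOSMaB), a Sendai virus vector with the reprogramming factors Klf4, Pou5f1 (Oct4), Sox2 and Myc, were selected with 2 µg/mL blasticidin S, and were harvested on day 5. The 4 groups were Osr2 cells with 10 µM SB431542, Osr2 cells without it, control cells that expressed the fluorescent protein Kusabira Orange with SB431542, and control cells without it. Each group had 1 poly(A) RNA library, so no difference has a replicate check and no p-value is given. The labels do not state which vector or promoter drove Osr2, nor how many embryos or cultures gave the cells.

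The comparison covered the 11239 genes with at least 1 TPM (the deposited unit, reads per transcript length scaled per library) in either of the 2 Osr2 libraries, of 13509 genes with at least 1 TPM in any of the 4. The values below rest mainly on the 2394 of these with at least 20 TPM in Osr2 cells without SB431542. The filter reads the untreated library, so a gene that was low there and higher with SB431542 is described apart.

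TGF-β, activin and Nodal ligands bind type II receptors that switch on the type I receptor kinases Tgfbr1 (ALK5), Acvr1b (ALK4) and Acvr1c (ALK7). These phosphorylate Smad2 and Smad3, which enter the nucleus with Smad4 and bind DNA at short CAGAC-type boxes. SB431542 blocks these kinases and spares the BMP type I receptors, which signal through Smad1, Smad5 and Smad9 to the Id genes. In fibroblasts the pathway is known for collagen, elastic fibre and contractile genes, and its inhibition is a common aid to reprogramming, in which fibroblast genes must be silenced.

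The libraries did not have equal depth. Whole reads recovered from the TPM steps came to 1629522 in Osr2 cells with SB431542, against 14199172 without it, so the treated library held 11.5% of the untreated reads. The control libraries held 13133050 and 17977548 reads with and without SB431542. A count of 0 allows up to 3 reads, which is a far larger share of the treated Osr2 library than of the untreated one. Mitochondrially encoded genes took 15.3% of the reads of Osr2 cells with SB431542, against 2.46% without it, and 0.706% and 1.77% in control cells with and without it. The deposited TPM of the genes kept here summed to 96038 in Osr2 cells with SB431542 and 270168 without it. The kept genes thus held different sums in the 2 columns. Whether the whole columns, with the entries that were left out, share a total was not tested. The median gene of at least 20 TPM was lower with SB431542 by a log2 difference of -2.40 on deposited TPM in Osr2 cells. Therefore the treated values were multiplied by 5.28, which sets the median ratio to 1, and each difference below is treated minus untreated log2(TPM + 1) relative to the median gene. TPM levels are printed as deposited.

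No gene had more reads in the treated Osr2 library than in the untreated one, in 16677 genes detected in either, and 251 genes had equal reads. Since the median gene kept 8.45% of its untreated reads, no gene could be more than 11.8-fold above the median gene, a log2 difference of 3.56 before the pseudocount. Each relative fold below is a gene's treated reads over its untreated reads, divided by that median share, with exact 95% intervals in brackets that cover counting error only. Whether the treated reads are also contained in the untreated column was not tested. If they were, the folds would be those after taking them away, 161 for Ptx3 instead of 11.1 and 112 for ND4 instead of 10.8, so the intervals do not bound the size of a fold near the ceiling. A gene was called higher or lower with SB431542 where the relative difference was at least 1 in size. Fewer cells of a type and less RNA per cell cannot be told apart in such bulk samples.

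Extracellular matrix and fibroblast marker genes had the lowest medians in Osr2 cells with SB431542 among the lists with at least 10 measured members. Periostin, biglycan, elastin, fibronectin and the chains of collagens I and III were 3.08-fold to 625-fold below the median gene, while mitochondrially encoded genes, immediate early genes and inflammatory genes stood above it. The 625-fold end is periostin, at 3 treated reads. In the same library Prdx1, a gene of most cells, had 2 reads against 1985 without SB431542. Of 7591 genes with at least 20 expected reads 76 had 0, so the size of the largest folds is poorly known. Among the genes of at least 20 TPM, 608 were lower (25.4%) and 546 were higher (22.8%). Among all 11239 genes 2782 were lower (24.8%) and 2119 higher (18.9%). The quartiles were -1.03 and 0.89 in Osr2 cells, against -0.22 and 0.06 in control cells, so the spread around the median gene was much wider in the Osr2 pair. In control cells, too, no gene had more treated than untreated reads, which limits the relative fold there to 1.35 and keeps larger rises from showing. How much of the difference in spread comes from this limit or from the depth of the treated Osr2 library was not tested.

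**Figure D1:**
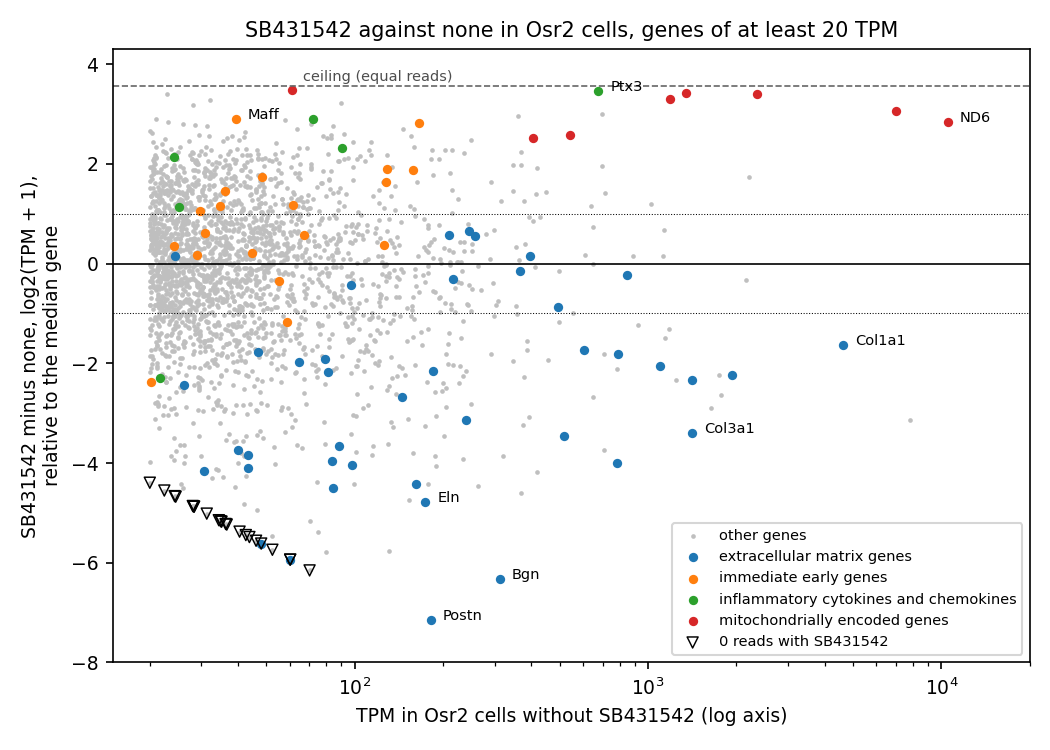
Relative difference, log2(TPM + 1), of Osr2 cells with SB431542 minus without it for the 2394 genes of at least 20 TPM, against the untreated TPM on a log axis; dotted lines mark a size of 1 and the dashed line marks equal reads. Matrix genes lie mostly below -1, down to -7.14 for Postn, while the 8 mitochondrially encoded genes lie between 2.52 and 3.48.

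Osr2 itself, the zinc-finger transcription factor that the cells were made to express, was measured first. Osr2 (chromosome 15) had 13.7 TPM in Osr2 cells with SB431542, against 59.1 TPM without it, and 0.764 and 0.89 TPM in control cells with and without it. Both Osr2 libraries thus lay above both control libraries. Relative to the median gene Osr2 was 1.23-fold higher with SB431542 (1.09 to 1.38), a difference of 0.29. The vector factors were higher with SB431542 in Osr2 cells for 3 of the 3 members of at least 20 TPM. Klf4 had 362 TPM with SB431542, against 711 TPM without it, a relative difference of 1.42. Sox2 differed by 1.20 and Myc by 1.25, and Pou5f1, at 4.19 TPM against 14.6 TPM, by 0.57. On deposited TPM all of these were lower with SB431542, and whether their reads came from the vector or the cells' own genes was not tested.

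Among the ligands and their latent binding proteins, 3 of 6 members of at least 20 TPM were lower and 1 was higher. Inhbb, which encodes an activin subunit, had 12.1 TPM in Osr2 cells with SB431542 and 21.4 TPM without it, a relative 2.97-fold higher level (2.62 to 3.36). Inhba, the other main activin subunit gene, stayed with the median gene at a difference of -0.00. Tgfb1 had 2.85 TPM with SB431542 and 9.73 TPM without it, a difference of 0.58. Tgfb3 was lower, at 0.567 TPM against 18.7 TPM (-2.30). Ltbp2 and Ltbp4, which hold latent TGF-β or elastic fibres in the matrix, were lower, with relative differences of -1.83 and -1.61.

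The receptors moved unequally. Tgfbr2, the TGF-β type II receptor, had 0.976 TPM in Osr2 cells with SB431542, against 30.1 TPM without it, and 8.07 and 6.63 TPM in control cells with and without it. It was 5.85-fold below the median gene (4.42 to 7.89). On deposited TPM the treated Osr2 library held the lowest of the 4 values, but the median gene was also lower there. Scaled to the median gene, the treated Tgfbr2 value in Osr2 cells was 5.15 TPM. The type I receptors, which SB431542 binds, were low in both Osr2 libraries. Tgfbr1 had 13 reads with SB431542 and 299 without it, a difference of -0.67, and Acvr1b had 41 and 351 reads, a difference of 0.41. Acvr2b, an activin type II receptor, was at 3.3 TPM with SB431542 and 2.54 TPM without it, and was higher by 2.38.

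The Smads and feedback genes lay on both sides of the median gene. Smad4, the common partner of all receptor-regulated Smads, had 87.9 TPM in Osr2 cells with SB431542 and 78.1 TPM without it, 5.94-fold above the median gene (5.63 to 6.26). Smad7, an inhibitory Smad that TGF-β itself induces, had 32 TPM with SB431542, against 39.4 TPM without it, and 14.5 and 16.8 TPM in control cells with and without it. Relative to the median gene Smad7 was thus 4.29-fold higher (3.97 to 4.63), while on deposited TPM it was lower. Smad2 differed by 1.37 and Smad3 by 0.05. Pmepa1 and Skil, further TGF-β feedback genes, were lower, with differences of -1.05 and -1.17. Fst, the activin antagonist follistatin, did not move from the median gene in Osr2 cells (0.01) and was lower in control cells (-1.10).

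Of 27 genes known as TGF-β or Smad3 targets that reached 20 TPM, 16 were lower, 3 were higher and 8 were neither, with a median of -1.31 beside 0.00 for all 2394 genes. The 3 higher members were Smad7, Junb and Cdkn1a. Ccn2, or connective tissue growth factor, lay slightly above the median gene in Osr2 cells, with 59.1 TPM against 209.9 TPM in Osr2 cells, a difference of 0.57, and 8.58 TPM against 18.3 TPM in control cells, a difference of -1.40. In Osr2 cells Ccn1 differed by 0.59, Cdkn2b by 0.53 and Snai1 by -0.31. Igfbp3, a TGF-β-induced carrier of insulin-like growth factors, was 23.9-fold below the median gene (17.6 to 33.3), at 2.09 TPM with SB431542 and 264 TPM without it.

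**Figure D2:**
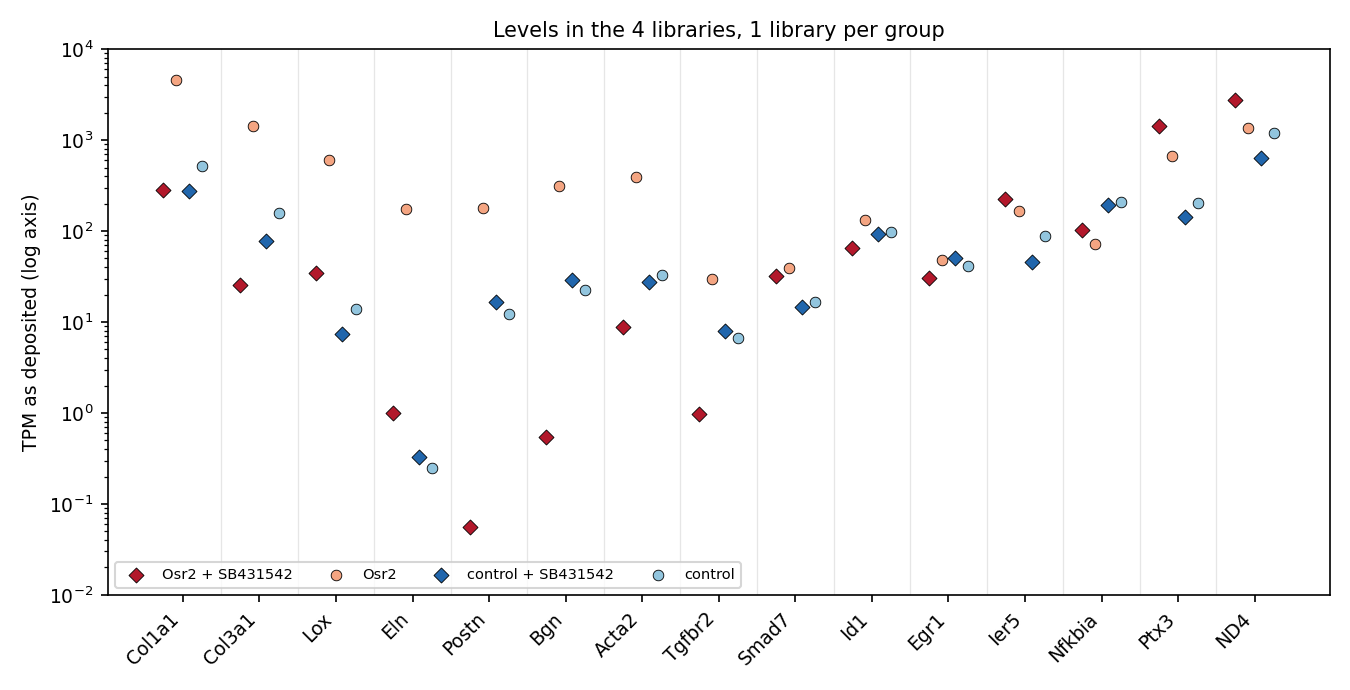
TPM as deposited, on a log axis, of 15 genes in the 4 libraries, 1 library per group; diamonds are cells with SB431542 and circles cells without it. Matrix and contractile genes were highest in Osr2 cells without SB431542, as Col1a1 at 4616 TPM, while Ier5, Nfkbia, Ptx3 and ND4 had higher deposited TPM with SB431542 in Osr2 cells and lower in control cells.

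Of 41 extracellular matrix genes of at least 20 TPM, 31 were lower and 0 were higher, with a median of -2.34. This list shares members with the TGF-β targets. Postn (chromosome 3, 54359267 to 54391041), which encodes periostin, a matricellular protein of fibroblasts, had 0.0551 TPM in Osr2 cells with SB431542, against 182 TPM without it, and 16.5 and 12.3 TPM in control cells with and without it. In reads this was 3 against 22163, a relative 625-fold lower level (214 to 3029). Bgn, or biglycan, had 21 reads with SB431542 and 26720 without it, 108-fold below the median gene (70.4 to 174). On deposited TPM the treated Osr2 library held the lowest of the 4 values for both genes, although the untreated one held the highest. Scaled to the median gene, the treated values in Osr2 cells were 0.291 TPM for Postn and 2.90 TPM for Bgn.

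Some members of the matrix list, chosen here for their role, build or cross-link elastic fibres. Eln (chromosome 5), which encodes elastin, had 1.01 TPM in Osr2 cells with SB431542, against 174 TPM without it, and was 32.7-fold below the median gene (24.9 to 44). Control cells had hardly any Eln, at 0.326 and 0.246 TPM with and without SB431542. Fibrillin-1 (Fbn1) was 9.14-fold lower (8.26 to 10.1), and fibulin-2 (Fbln2) was 16.3-fold lower (14.7 to 18.1). Outside that choice, Mfap4 and Aspn were the 2 list members of at least 20 TPM at 0 with SB431542, against 1626 and 1586 reads without it. Of the 48 list members of at least 1 TPM in either Osr2 library, 6 were listed at 0. Lox, which cross-links elastin and collagen, had 34.3 TPM with SB431542 and 607 TPM without it (-1.74), and was lower in control cells as well, at 7.35 TPM against 13.8 TPM (-1.20).

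The collagens were less uniform. Of 15 collagen genes 7 were lower and 0 higher, with a median of -0.86. Col1a1 (chromosome 11, 94936224 to 94953042), the main chain of type I collagen, had 284 TPM in Osr2 cells with SB431542, against 4616 TPM without it, and 279.6 and 522 TPM in control cells with and without it. It was 3.08-fold below the median gene in Osr2 cells (3.03 to 3.14) and 2.54-fold below it in control cells. Col3a1, of type III collagen, had 25.4 TPM against 1415 TPM in Osr2 cells (-3.39) and 78.7 TPM against 158 TPM in control cells (-1.43). Both genes were thus lower with SB431542 in each kind of cell. By contrast the basement membrane gene Col4a1 (0.16), Col5a1 (-0.22) and Col6a1 (0.56) stayed near the median gene in Osr2 cells, as did the matricellular gene Tnc (0.66).

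The 250 bases before the RefSeq start of Postn and Col3a1 (build GRCm38.p6) are shown because Postn had the lowest value of the matrix list, Col3a1 was lower in both kinds of cell, and both hold the CAGAC box that Smad3 and Smad4 can bind; capitals mark CAGAC or, for the other strand, GTCTG, and each sequence runs 5′ to 3′ along the gene's strand.
Postn, chr3:54359017-54359266, plus strand: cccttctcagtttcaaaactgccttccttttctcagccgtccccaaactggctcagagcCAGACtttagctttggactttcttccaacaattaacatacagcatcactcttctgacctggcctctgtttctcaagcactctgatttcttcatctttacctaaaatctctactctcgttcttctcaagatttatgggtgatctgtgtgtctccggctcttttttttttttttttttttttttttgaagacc
Col3a1, chr1:45311288-45311537, plus strand: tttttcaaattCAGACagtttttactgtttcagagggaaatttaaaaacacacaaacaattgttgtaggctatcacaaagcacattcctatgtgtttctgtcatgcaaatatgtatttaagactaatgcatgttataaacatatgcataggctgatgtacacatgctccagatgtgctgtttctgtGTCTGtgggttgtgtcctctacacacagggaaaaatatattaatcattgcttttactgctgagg
CAGAC on either strand was found in 51.9% of the 27 matrix promoters with a RefSeq entry, in 44.4% of 18 promoters of TGF-β targets, in 39.1% of the 1897 promoters of genes of at least 20 TPM and in 42.1% of all 27025 promoters. It was found in 40.6% of 453 genes called lower and in 38.3% of 433 called higher. A match is a description of the letters and does not show binding.

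Enzymes that make, cut or shield the matrix were mostly lower too. Of 12 proteases and inhibitors 10 were lower and 0 higher, with a median of -1.71. Mmp2, a gelatinase, had 2.13 TPM in Osr2 cells with SB431542 and 101 TPM without it (-3.06), and Timp3, an inhibitor of such enzymes, had 3.16 TPM and 151 TPM (-3.11). Timp1 stayed with the median gene at -0.05. Serpinh1, the collagen chaperone Hsp47, was 3.53-fold lower (3.27 to 3.82). Of 9 integrin and laminin genes 6 were lower and 0 higher. Itga11, a collagen-binding integrin chain, had 5 reads with SB431542 and 5394 without it (-5.38), whereas the shared chain Itgb1 stood at 0.04.

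Contractile genes, which mark myofibroblasts, were less uniform. Of 15 members 7 were lower and 0 higher, with a median of -0.65. Acta2, or smooth muscle actin, had 8.73 TPM in Osr2 cells with SB431542, against 394 TPM without it, 8.54-fold below the median gene (7.14 to 10.3). Control cells had 27.7 and 32.6 TPM with and without SB431542, a difference of -0.66. Cnn2 (-3.27), Flna (-2.82) and Myl9 (-2.61) were lower, and Tagln, with 4 reads against 472, differed by -2.73. Non-muscle myosin Myh9 (0.39), Tpm1 (0.43) and Actn1 (0.62) stood slightly above the median gene, and Tagln2 reached 0.999, just short of the size rule.

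Fibroblast identity genes overlap the matrix list. Of 13 embryonic fibroblast markers of at least 20 TPM, 10 were lower and 0 higher, with a median of -2.34. Thy1, a surface antigen of fibroblasts, was 3.58-fold below the median gene (3.12 to 4.14), and Pdgfra 9.17-fold (6.89 to 12.5). Twist1, a mesenchymal transcription factor, differed by 0.54. A further marker set of 9 fibroblast genes summed to 380 TPM in Osr2 cells with SB431542, against 6507 TPM without it, and 556 and 843 TPM in control cells with and without it. Scaled to the median gene, the treated sum was 2003 TPM, and 1 of the 9 markers, Lum, was listed at 0. The labelled cell type was thus visible in all 4 libraries.

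Marker sets of other cell types had lower sums than the fibroblast set. Pluripotent cell markers summed to 0.484 TPM in Osr2 cells with SB431542 and 0.629 TPM without it, with Nanog, Esrrb, Zfp42 and Dppa5a listed at 0 in the treated library. Epithelial markers summed to 1.26 and 2.3 TPM, with Epcam, Krt18, Cldn4 and Cldn7 at 0. Macrophage markers summed to 15.9 TPM with SB431542 and 68.7 TPM without it, with none of 8 at 0, and their treated sum was 84.1 TPM on the scaled values. Neural markers summed to 6.91 TPM in Osr2 cells with SB431542 (36.4 TPM scaled) and 16.8 TPM without it, against 196 and 136 TPM in control cells with and without it, with Pax6 and Dcx at 0 in the treated Osr2 library. Stmn2, a neuronal tubulin-binding protein gene, had 22.9 TPM with SB431542 and 22 TPM without it in Osr2 cells, a relative difference of 2.41. Endothelial markers summed to 0.444 TPM with SB431542 and 5.08 TPM without it in Osr2 cells, and trophoblast markers to 0.603 and 4.28 TPM. The part of such cells in the inflammatory values below was not tested.

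Insulin-like growth factor genes also held many lower members. In the IGF list 7 of 10 were lower and 0 higher, among them Igfbp3 and the imprinted RNA H19, with 41.8 TPM in Osr2 cells with SB431542 against 1642 TPM without it (-2.89). Igfbp7 was an exception at 0.66 in Osr2 cells, with -1.28 in control cells. Of 7 Wnt ligand, receptor and inhibitor genes of at least 20 TPM 4 were lower and 0 higher. Over the 25 of at least 1 TPM in either Osr2 library 7 were lower and 4 higher, with a median of -0.21. Among all 11239 genes 24.8% were lower and 18.9% higher, so the wider Wnt list lay near these shares. Dkk3 was 20.5-fold below the median gene (10.4 to 47.5), and Dkk2, a Wnt antagonist, was lower in both kinds of cell, at -1.42 in Osr2 cells and -1.03 in control cells.

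The BMP branch, which SB431542 is known to spare, had 1 lower and 2 higher genes among 6. Of all 2394 genes 25.4% were lower and 22.8% higher, and 6 genes are too few to tell apart from these shares. Whether SB431542 spared this branch here was not tested. Id1, a BMP target that inhibits basic helix-loop-helix factors, had 64.6 TPM in Osr2 cells with SB431542, against 133 TPM without it, and 93.1 and 97.5 TPM in control cells with and without it. It was 2.56-fold above the median gene (2.31 to 2.82) in Osr2 cells and at -0.50 in control cells. Smad6, an inhibitory Smad of the BMP branch, was 3.02-fold above it (2.62 to 3.47). Id3 differed by 0.44, and Id2 was listed at 0 with SB431542, against 178 reads without it. Over 19 BMP members of at least 1 TPM, 6 were lower and 7 higher, beside 24.8% lower and 18.9% higher of all 11239 genes.

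Immediate early genes, which cells switch on within minutes of a stimulus, were mostly above the median gene. Among 19 members of at least 20 TPM 10 were called higher and 2 lower; the list's median was 1.06 relative to the median gene and -1.25 on deposited TPM. Ier5 had 223 TPM in Osr2 cells with SB431542, against 166 TPM without it, and 45.6 and 88.9 TPM in control cells with and without it. It was 7.12-fold above the median gene in Osr2 cells (6.75 to 7.5), and in control cells its difference was -1.38. The bZIP factor gene Maff was 7.64-fold higher (7.03 to 8.31), and Egr1 3.36-fold (3.12 to 3.63). Junb (1.90), Jund (1.87), Ier2 (1.65), Fosl2 (1.45) and Jun (1.17), most of them AP-1 subunits, were higher as well.

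Fos and Fosb, which pair with Jun proteins in AP-1, lay below the median gene. Fos had 4.82 TPM in Osr2 cells with SB431542, against 58.7 TPM without it, 2.31-fold below the median gene (1.82 to 2.97). Fosb was 6.5-fold below it (4.32 to 10.3). Over all 28 members of at least 1 TPM in either Osr2 library 16 were higher and 2 lower. Egr4, at 25.4 TPM with SB431542 and 11.3 TPM without it, had 342 reads in each library and therefore lay on the ceiling.

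Inflammatory genes were higher in 5 of 6 members and lower in 1, with a median of 2.23 relative to the median gene (-0.13 on deposited TPM). Ptx3 (chromosome 3, 66219887 to 66225806), which encodes the secreted pattern-recognition protein pentraxin 3, had 1420.1 TPM in Osr2 cells with SB431542, against 676 TPM without it, and 145 and 206 TPM in control cells with and without it. Its 23830 treated reads nearly equalled its 25432 untreated reads, so that its 11.1-fold relative level (10.9 to 11.3) was close to the ceiling. Nfkbia, the NF-κB inhibitor that NF-κB itself induces, had 103 TPM with SB431542 and 72.2 TPM without it (2.90), against 195.5 and 209 TPM in control cells (-0.53). Csf1, a macrophage growth factor, was 5.07-fold above the median gene (4.85 to 5.29) and the adhesion gene Icam1 4.52-fold (4.1 to 4.99). Cxcl12 was the exception, 5.99-fold below it (4.3 to 8.62). At lower levels Cxcl2 had 200 reads against 204 and Tnfaip3, another NF-κB feedback gene, 695 against 865.

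The promoters of Srf, an immediate early gene and the factor that binds CArG boxes, and of Nfkbia are shown since they hold the sites known for these groups; capitals mark the SRF CArG box in Srf and the kappa-B site in Nfkbia, both searched on either strand of the 250 bases before the RefSeq start (GRCm38.p6).
Srf, chr17:46556163-46556412, minus strand: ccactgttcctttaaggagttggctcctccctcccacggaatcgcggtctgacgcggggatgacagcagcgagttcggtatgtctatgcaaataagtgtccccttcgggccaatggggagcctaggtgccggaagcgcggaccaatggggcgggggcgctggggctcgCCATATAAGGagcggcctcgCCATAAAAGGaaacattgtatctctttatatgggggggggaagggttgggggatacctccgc
Nfkbia, chr12:55492648-55492897, minus strand: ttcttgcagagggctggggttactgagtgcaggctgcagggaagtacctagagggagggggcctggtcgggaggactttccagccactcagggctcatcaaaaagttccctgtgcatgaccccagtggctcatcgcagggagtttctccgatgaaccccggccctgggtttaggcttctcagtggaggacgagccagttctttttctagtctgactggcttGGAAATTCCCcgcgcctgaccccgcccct
Srf had 14.9 TPM in Osr2 cells with SB431542 and 34.7 TPM without it, a relative difference of 1.15. The CArG box occurred in 2 of 17 immediate early promoters (11.8%), in 1.95% of the promoters of genes of at least 20 TPM and in 1.40% of all promoters. The kappa-B site occurred in 2 of 5 inflammatory promoters (40.0%) and 4 of 17 immediate early ones (23.5%), beside 4.59% of the promoters of genes of at least 20 TPM. In all genes called higher the CArG box occurred in 2.77% and the kappa-B site in 4.85%, against 2.43% and 4.86% in all genes called lower.

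**Figure D3:**
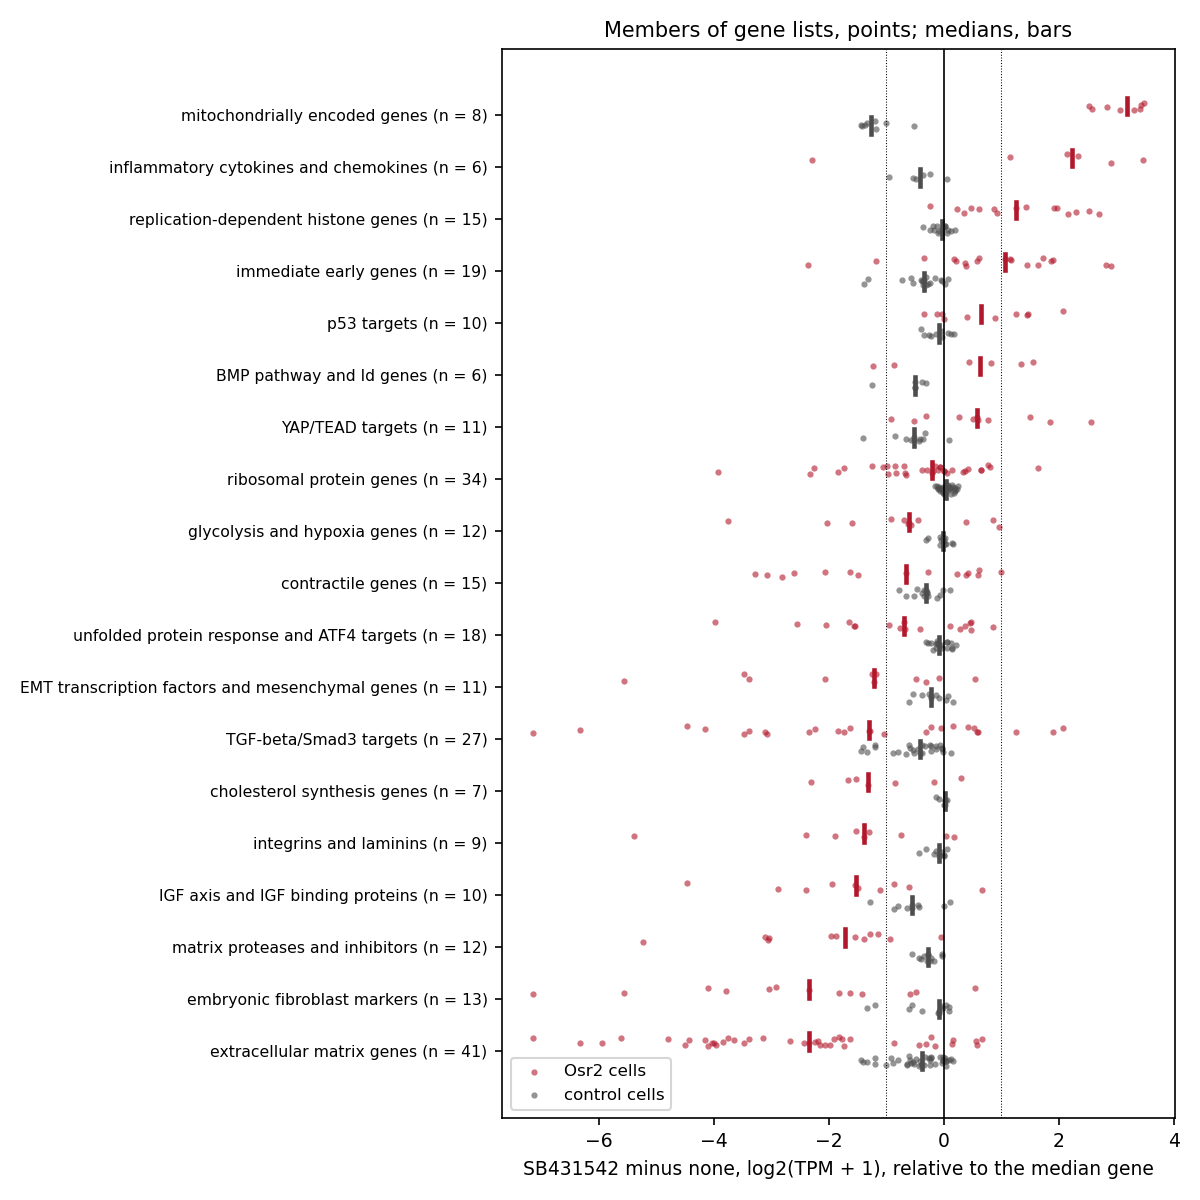
Relative difference, log2(TPM + 1), of SB431542 minus none for the members of 19 gene lists with at least 20 TPM in untreated Osr2 cells; points are genes, bars are medians, red is Osr2 cells and grey is control cells. The Osr2 medians run from -2.34 for matrix genes to 3.18 for mitochondrially encoded genes, while control medians stay between -1.26 and 0.04.

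Mitochondrially encoded genes, which specify subunits of the respiratory chain, were higher in 8 of 8 members with at least 20 TPM, with a median of 3.18 (0.79 on deposited TPM). Of the 13 such genes only these 8 reached 1 TPM in either Osr2 library, so the values describe a part of the set. ND4 had 2757 TPM in Osr2 cells with SB431542, against 1349 TPM without it, and 635 and 1206 TPM in control cells with and without it. ND6, the highest in TPM, had 14200 TPM with SB431542 and 10514 TPM without it (2.83), and COX1 had 443 and 406 TPM (2.52). In reads ND5 stood above ND6, with 127189 against 46111 in the treated Osr2 library. Whether annotation or counting shaped the order of these genes was not tested. In control cells 6 of the 8 were lower, with a median of -1.26, so that these genes lay on opposite sides of the median gene in the 2 kinds of cell. The nuclear genes of the same respiratory complexes did not share this pattern, with 4 of 20 higher, 4 lower and a median of -0.28.

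Linker and core histone genes of the replication-dependent clusters were higher in 8 of 15 members and lower in 0, with a median of 1.25 (-1.08 on deposited TPM). Whether the histone reads came from RNA with poly(A) tails, which the libraries select, was not tested. H1f1 was 6.49-fold above the median gene (5.96 to 7.07), at 180.1 TPM in Osr2 cells with SB431542 and 146 TPM without it. Of 10 p53 targets of at least 20 TPM, 4 were higher and 0 lower, led by Plk2 at 2.07. The wider p53 list, 17 genes reaching 1 TPM in either Osr2 library, held 5 higher members. Its 2 lower members were Eda2r (-2.33, 1 read against 391) and Trp53inp1 (-2.03, 28 reads against 1632). The middle value of this wider list was 0.24, so it leaned upward less than the 10 genes alone. Among all 11239 genes 18.9% were called higher and 24.8% lower. Of 11 YAP/TEAD targets 3 were higher and 0 lower, led by Gadd45b (2.55) and Crim1 (1.85), a share close to the 22.8% of all genes called higher. Among single genes with few list partners, Gadd45g, a stress-induced growth arrest gene, was 7.76-fold above the median gene (7.45 to 8.08), and the forkhead factor gene Foxd1 11-fold (10.3 to 11.8).

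The genes farthest from the median gene by their counting intervals were only partly members of these groups. Near the ceiling, Pcsk1n, which encodes the proprotein convertase inhibitor proSAAS, had 138 TPM in Osr2 cells with SB431542, against 61.8 TPM without it, and 229 and 202 TPM in control cells with and without it. Its reads were 1898 and 1902, a relative difference of 3.54, the highest of the 2394 genes. ND3 (3.48), Shisa8 (3.28), Epop (3.23), 2410017I17Rik (3.19), Csrnp1 (2.91) and the small nucleolar RNA Snord15a, with 975 reads against 1444, were also among the 15 highest.

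At the low end Gas1, a growth arrest gene and Hedgehog coreceptor, had 5 reads in Osr2 cells with SB431542, against 5440 without it (-5.77), and -0.83 in control cells. Prdx1, a peroxiredoxin found in most cells, had 2 reads against 1985 and was 83.9-fold below the median gene (23.2 to 693). Pls3, Gpx3, Cdh3 and Sdc2 had 1 treated read each, with differences of -5.47, -5.79, -4.50 and -4.42. For Cdh3, or P-cadherin, the interval of the 135-fold lower level ran from 24.2 to 5346, so its size is poorly known. The collagen gene Col12a1 was 24.5-fold below the median gene (20.5 to 29.6), and the matrix genes Ccdc80 (-4.75) and Podn (-4.49) and the membrane protein gene Emp1 (-4.42) were further members of the 15 lowest. Ogn, Ctsk and S100a4 were listed at 0 with SB431542, against 1257, 771 and 378 reads without it.

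Few pluripotency genes were measurable. Of 2 members of at least 20 TPM, Trim28, a chromatin corepressor, was higher (1.48), and Klf2 differed by 0.57. Over the 7 members of at least 1 TPM 4 were higher and 0 lower. Nr0b1 had 105 reads in each Osr2 library, and L1td1 had 89 with SB431542 and 118 without it, so both lay at or near the ceiling on small numbers. In deposited TPM Nr0b1 stood at 9.28 in Osr2 cells with SB431542 (49 after scaling) and 4.14 without it, beside 92.2 and 67.3 in control cells with and without it. Nanog had 0 reads with SB431542 and 13 without it, and Cdh1, the epithelial cadherin, had 15 and 16.

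Among genes that every cell uses, most ribosomal protein and proteasome genes were called neither lower nor higher. Of all 2394 genes 25.4% were lower and 22.8% higher. Single members of these lists lay far from the median gene. Of 34 ribosomal protein genes 7 were lower and 1 higher, with a median of -0.20, but Rps4x had 28 reads with SB431542 and 5368 without it (-3.93) while Rpl7 stood at 1.63. Of 12 proteasome genes 4 were lower and 1 higher, and Psma6, an essential subunit, was listed at 0, against 488 reads without SB431542 and 41.3 expected at the median ratio. In control cells the ribosomal median was 0.04. Idh1, Cstb, Atox1 and Mien1 were also listed at 0 in the treated Osr2 library. Since such genes are among the 23 of the 2394 at 0, a single gene listed at 0 with SB431542 is given no fold here. Without these 23 genes 585 were lower.

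Cholesterol synthesis genes were lower in 4 of 7 members and higher in 0, with Insig1 at -1.67, and unfolded protein response and ATF4 targets were lower in 6 of 18 and higher in 0, with Nupr1, at 1 read against 708, and Trib3 (-2.56) the lowest. Glycolysis and hypoxia genes were lower in 3 of 12 and higher in 0, with a median of -0.61, a share close to the 25.4% of all genes called lower. Chaperone genes were lower in 5 of 12 and higher in 0, with Hspa8 the lowest at -1.63. Over members of at least 1 TPM in either Osr2 library, 7 of 23 unfolded protein response targets were lower and 1 higher. Chaperone genes were then lower in 5 of 17, with a median of -0.08, and cholesterol synthesis genes in 10 of 24. For the unfolded protein response and chaperone lists these shares are near the 24.8% of all 11239 genes called lower.

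Transcript structure moved with the differences in Osr2 cells. The 56 protein-coding genes with 1 exon had a median of 1.26, with 36 higher and 6 lower, against -0.05 for the 2239 genes with 2 or more exons. The 218 genes whose longest transcript has at least 60% GC had a median of 0.76, with 90 higher and 20 lower, against -0.32 for genes of 48 to 52% GC. In control cells the corresponding medians were -0.36 for 1 exon and -0.24 for at least 60% GC. Of the immediate early genes 6 have 1 exon, with a median of 1.76, and the 13 with 2 or more exons had a median of 0.57, with 5 higher and 2 lower. The matrix genes all have 2 or more exons, and the 21 of 52 to 60% GC had a median of -2.06, beside 0.05 for all 1166 protein-coding genes in that GC range. The part of exon number and GC content in the immediate early values was not tested further.

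**Figure D4:**
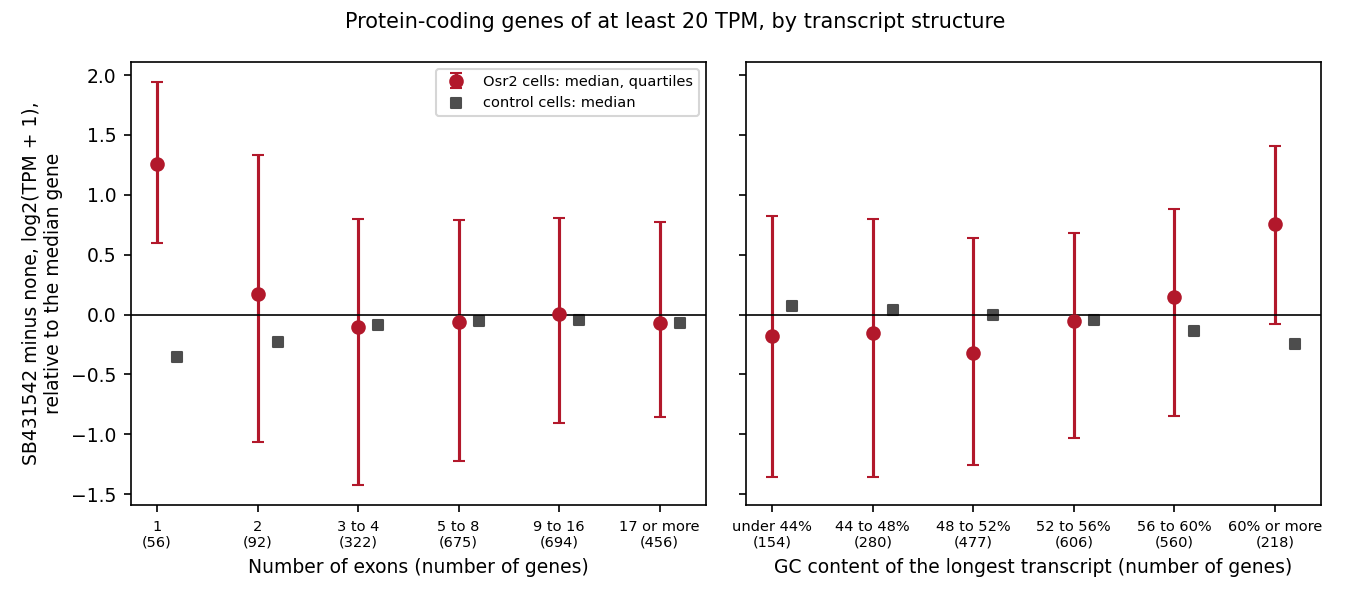
Relative difference, log2(TPM + 1), of SB431542 minus none for protein-coding genes of at least 20 TPM by exon number (left) and GC content (right); red circles and bars are medians and quartiles in Osr2 cells and grey squares are medians in control cells. Genes with 1 exon (median 1.26) and with at least 60% GC (0.76) stand above the others in Osr2 cells and not in control cells.

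The same inhibitor in control cells gave far smaller differences on the same 2394 genes, with 28 lower (1.17%) and 0 higher. A count of 0 was forced there, since the treated control library held 73.1% of the untreated reads and no gene in it had more reads than in the untreated one, which limits the relative fold to 1.35. Of the 28 genes 11 were also lower in Osr2 cells: Col1a1, Col1a2, Col3a1, Lox, Ptn, Cdkn1c, Dkk2, Galnt18 and the microRNA entries Mir370, Mir673 and Mir3070b. Ptn, which encodes the growth factor pleiotrophin, had 2.7 TPM against 370.2 TPM in Osr2 cells (-4.61) and 28 TPM against 48.4 TPM in control cells (-1.19). A further 9 genes were higher in Osr2 cells and lower in control cells.

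Because treated reads never exceeded untreated ones in either pair, the treated reads were also taken away from the untreated column before scaling. In Osr2 cells this left 636 genes lower and 605 higher, among them all 608 and 546 of the direct comparison, since the step keeps the order of genes. In control cells it widened the differences to 364 lower and 102 higher genes. The matrix median was then -2.44 in Osr2 cells and -1.12 in control cells, with 22 of 41 members lower there, and the TGF-β target medians were -1.39 and -1.20. Immediate early genes had medians of 1.21 in Osr2 cells and -1.02 in control cells, and inflammatory genes 2.84 and -1.18. On either scale matrix genes were thus below the median gene in both kinds of cell, while immediate early and inflammatory genes were above it in Osr2 cells and below it in control cells. Whether the 2 kinds of cell differ in these values cannot be tested with 1 library per group.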

How the data were processed

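Poly(A) RNA was sequenced from 4 groups of 1 library each. Per the series design text, the authors mapped reads to GRCm38.p6 with STAR 2.7.3a, counted them per gene with featureCounts 2.0.0 on Ensembl release 75 models, and deposited TPM. In addition, 4 further columns, named for none of these samples, were not used. Of 27304 entries, 26 named as dates and 469 that share 140 symbols were left out.

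Whole reads were recovered from the TPM steps that the 4 columns share, within 0.001 of a whole number, for all 18787 genes with a value above 0; 241 small RNA genes of known RefSeq length set the scale. Read numbers are lower limits, since a common factor can be lost. Reads are not counted molecules, so intervals and limits cover counting error only, and replicate error is unknown.

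Treated TPM was multiplied by 5.28 in Osr2 cells and 0.735 in control cells to set the median ratio to 1 over genes of at least 20 TPM without SB431542. Differences are of log2(TPM + 1); the pseudocount of 1 TPM shrinks those of low genes. Genes were counted by a size of at least 1, with no test. The 42 gene lists, 925 of whose 928 entries were found, and the genes described were chosen with earlier results of these data known. The rule for named genes took the 15 genes highest and lowest by the inner bound of the counting interval, 10 at 0 treated reads, a set panel and, of the lists described, the 2 extreme members at either end or members that a role or an exception called for; some members that the rule names are not reported here. Positions, promoters, exon numbers and GC content are from RefSeq (GRCm38.p6) and GENCODE annotation of GRCm38. Alternatives were other pseudocounts, filters, scalings and sizes, read subtraction and leaving out genes at 0. Python 3.11.15, numpy 2.4.6, pandas 2.3.3 and scipy 1.17.1 were used, and the steps were tested on simulated data.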

Additional observations from a re-analysis of the deposited data

Results flagged for a closer look

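A total of 9 genes were higher with SB431542 in Osr2 cells and lower with it in control cells, by at least 1 in size on the log2(TPM + 1) scale relative to each pair's median gene. The difference between the 2 kinds of cell was not tested, since each group has 1 library. The mitochondrially encoded genes among them were ND1 (3.30 in Osr2 cells and -1.33 in control cells), ND2 (3.40 and -1.19), ND4 (3.43 and -1.37), ND5 (3.07 and -1.42), ND6 (2.83 and -1.44) and CYTB (2.57 and -1.19). The median of the 8 mitochondrially encoded genes was 3.18 in Osr2 cells and -1.26 in control cells. The stress and growth factor response genes Gadd45g (2.95 in Osr2 cells and -1.43 in control cells), Ier5 (2.82 and -1.38) and Ier5l (1.21 and -1.13) made up the rest. In reads with and without SB431542, Ier5l had 241 and 1215 in Osr2 cells and 187 and 598 in control cells. No gene was lower in Osr2 cells and higher in control cells. A higher call could not occur in control cells, since no gene there had more reads with SB431542 than without it, which limits the relative fold to 1.35.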

How the results depend on the processing

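Scaling decided the direction. On TPM as deposited, 2000 genes were lower and 6 higher, and the medians were -3.40 for TGF-β/Smad3 targets, -4.63 for matrix genes, -2.88 for contractile genes, -1.25 for immediate early genes and -1.34 for pluripotency genes, of which the last pair is opposite in sign to the relative values. Scaling to the total of reads without mitochondrially encoded genes, which moved all genes by a log2 shift of -0.24, gave 729 lower and 435 higher genes. Filters of 5 TPM, of 50 TPM and of 1 TPM in either column gave 1622, 248 and 2782 lower and 1411, 164 and 2119 higher genes, by the number of genes they leave. A filter on the mean of the 2 scaled columns gave 1038 higher genes and a pluripotency median of 2.02, and a size of 1.5 gave 314 higher genes. The other 68 of 84 values, which include read subtraction and pseudocounts of 0.25 and 5, kept their direction and stayed within 1.5 times the count or within the list's spread. Limiting the genes to protein-coding ones with 2 or more exons, an alternative added after seeing the data, gave 574 lower and 469 higher genes. Depth limits the treated Osr2 library, in which the median gene of at least 20 TPM had 174 reads, and 76 of 7591 genes with at least 20 expected reads had 0. No paired analysis was possible because each group has 1 library, and for the same reason no library could be left out.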

Other observations

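Nuclear noncoding RNAs were low in Osr2 cells with SB431542 beside the protein-coding groups described above. Of 6 members of at least 20 TPM 4 were lower and 0 higher, with a median of -1.88, against a control median of 0.17. Rn7sk, the small nuclear RNA that holds the elongation factor P-TEFb inactive, had 169 TPM with SB431542 and 7842 TPM without it in Osr2 cells (-3.14), against 15543 and 9830 TPM in control cells with and without it (0.22). Whether the Rn7sk reads came from RNA with a poly(A) tail, which the libraries select, was not tested. Malat1, an abundant RNA of nuclear speckles, had 89.2 TPM and 1176 TPM in Osr2 cells (-1.32). Meg3, the maternally expressed RNA of the imprinted Dlk1-Dio3 region on chromosome 12, had 161 reads with SB431542 and 11527 without it (-2.45). The microRNA entries Mir370, Mir673 and Mir3070b of the same region were listed at 0 with SB431542, against 39, 40 and 43 reads without it, where 3.3, 3.38 and 3.64 reads would be expected at the median ratio, so their zeros carry little weight.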
